A study of Homo sapiens with 4 samples.

Results

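Housekeeping genes serve every cell and are widely used as loading and reference controls. The 8 genes described here are ACTB, GAPDH, EEF1A1, YWHAZ, TBP, PGK1, PPIA and HPRT1, and they were followed through every H3K4me3 peak assigned to them within 5000 bases of a transcription start site (TSS). Of the 110018 merged peaks, 25 met this rule. HCC1428 is an established breast adenocarcinoma line of luminal type, labelled as wild type. Cells received 2.5 µM C48, a KDM5 inhibitor, or DMSO, the vehicle, and both groups were collected on day 5. Each group holds 2 CUT-and-Tag libraries, named as biological replicates, and the methods state only that samples were made in duplicate. The p-values and standard errors (SE) of the limma fits rest on spread between libraries, which may be technical. That spread is largely pooled over peaks or genes of like strength, so it is not the spread of a single peak. The fly nuclei added to all samples as a spike-in were not used here.

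Trimethylation of histone H3 at lysine 4 (H3K4me3) marks the nucleosomes around active promoters. KDM5 enzymes remove the mark, and COMPASS-type methyltransferases place it, partly through recruitment to unmethylated CpG islands, where most housekeeping promoters lie. At an active gene the mark typically forms a tall core next to the TSS, strongest over the first nucleosomes downstream, and falls away into lower shoulders. In CUT-and-Tag an antibody brings the transposase Tn5 to the mark, so that the number of sequenced fragments follows the amount of mark at a site.

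Here a core peak has its centre within 500 bases of the nearest TSS and a shoulder peak lies further out, up to 5000 bases. By this division the 8 genes had 14 core and 11 shoulder peaks. YWHAZ had 4 core peaks and no shoulder, because each of its peaks lies near a different annotated TSS, so 7 of the 8 genes fit the description of a core with shoulders by the table's own distances. Inside the window the peak closest to its 5000-base edge was that of EEF1A1 at −2622, and the first ones outside were TBP at +6906, which held 0 tags in all libraries, TBP at +7681 and GAPDH at −8353. Peaks are named here by gene and signed distance to the nearest TSS, negative meaning upstream. The genes were chosen by the presence of H3K4me3 peaks at their starts and with earlier group differences known, among them a higher ACTB promoter and lower promoters of most others. The counts below therefore describe these genes and support nothing further.

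Values are tags per 10 M aligned tags, scaled between libraries by TMM, which takes the bulk of peaks as unchanged. A whole-genome rise or fall cannot be seen on this scale, and in bulk libraries less mark in every cell and fewer marked cells cannot be told apart. The paper reports fewer fly reads in C48 samples and takes their H3K4me3 to be counted too low unless the spike-in is used. No scaling here uses it, so higher and lower are meant relative to the peaks or promoters that set the scale. Relative to the deposited values, TMM lowers C48 minus DMSO log2 differences by 0.33, and by slightly less in weak peaks because of the pseudocount. A scaling on ribosomal protein promoters raises them by 0.45 instead, and a peak whose direction depends on this choice is named as such. Libraries held 58.4 and 72.7 M aligned tags for C48 and 88.4 and 64.6 M for DMSO, with 64.0% to 66.3% in peaks. All 25 peaks passed the filter of a mean of 5 tags and were tested among 43712 peaks. Between 14 and 18421 tags lay behind each value, and the count tests took 2 tags as 1 read pair. Luminal markers were marked, with 11 of 12 measured and summed levels of 6063 to 6286 tags in C48 and 8952 to 9052 in DMSO libraries. Of 9 blood and immune markers only CD14 passed the filter, at 44.5 and 41.7 tags in C48 and 19.6 and 17.8 in DMSO libraries. Basal and myoepithelial markers (4 of 8 measured) summed to 660.4 to 674 tags in C48 and 706 to 741 in DMSO libraries, and stromal and endothelial markers (4 of 9) to 1369 to 1395 in C48 and 1310 to 1376 in DMSO libraries. In both lists 2 genes were higher, 1 lower and 1 not called on the TMM scale, and of the luminal genes 2 were higher and 9 lower. Over all 15615 gene sums within 5000 bases 21.6% were higher and 60.5% lower. The part of these lists in the results was not tested. The stromal gene COL1A1 held 842 and 879 tags in C48 and 955 and 1013 in DMSO libraries, near the luminal ESR1 at 794 and 838 and at 1068 and 1102. EGFR of the basal list held 341 and 337 in C48 and 552 and 535 in DMSO libraries. Levels of single genes thus did not separate the lists.

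The shoulder peaks with the largest rises on the TMM scale are shown as sequence beside promoters of the same and other genes, so that the letters under core and shoulder can be compared. The shoulder peaks were those of GAPDH at −1008 (chr12:6533378-6533641, plus strand, hg38) and HPRT1 at +1338 (chrX:134461398-134461609, plus strand, hg38), read here 5′ to 3′ with each CpG in capitals. GAPDH had 10 CpGs in 264 bases and HPRT1 had 2 in 212 bases.
GAPDH −1008 shoulder: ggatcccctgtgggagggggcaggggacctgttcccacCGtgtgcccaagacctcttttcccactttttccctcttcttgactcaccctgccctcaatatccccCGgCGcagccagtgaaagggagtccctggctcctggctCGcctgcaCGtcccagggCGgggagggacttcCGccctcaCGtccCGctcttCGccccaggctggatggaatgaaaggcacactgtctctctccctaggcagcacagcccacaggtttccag
HPRT1 +1338 shoulder: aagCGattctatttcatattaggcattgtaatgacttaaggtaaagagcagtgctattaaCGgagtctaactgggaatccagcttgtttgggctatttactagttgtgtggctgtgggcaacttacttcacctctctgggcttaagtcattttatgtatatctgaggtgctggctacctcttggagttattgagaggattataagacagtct

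For comparison, promoters of 300 bases, from 250 before to 50 after the RefSeq gene start (GRCh38.p14), matched 6 of the 8 genes: GAPDH, EEF1A1, TBP, PGK1, PPIA and HPRT1. For GAPDH the RefSeq entry is an internal start, 747 bases downstream of the canonical TSS, whose own promoter was not searched, while the other 5 match the canonical TSS. Capitals mark the TATA box (TATAAA), GC box (GGGCGG) and CCAAT box (CCAAT) letters on either strand, where neighbouring matches may overlap. The internal GAPDH promoter (chr12:6535014-6535313, plus strand) lies whole inside the −247 peak, and that of EEF1A1 (chr6:73520983-73521282, minus strand) inside the +60 peak. The PPIA promoter (chr7:44796431-44796730, plus strand) has 296 of its 300 bases in the −279 peak, whereas that of HPRT1 (chrX:134459915-134460214, plus strand) has 81 in the +397 peak.
GAPDH internal promoter: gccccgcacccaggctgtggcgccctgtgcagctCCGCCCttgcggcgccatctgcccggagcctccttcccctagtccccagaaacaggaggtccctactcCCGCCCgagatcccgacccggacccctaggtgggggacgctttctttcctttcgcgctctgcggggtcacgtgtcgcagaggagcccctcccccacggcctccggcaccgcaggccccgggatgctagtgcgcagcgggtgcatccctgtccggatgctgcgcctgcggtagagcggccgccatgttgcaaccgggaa
EEF1A1 promoter: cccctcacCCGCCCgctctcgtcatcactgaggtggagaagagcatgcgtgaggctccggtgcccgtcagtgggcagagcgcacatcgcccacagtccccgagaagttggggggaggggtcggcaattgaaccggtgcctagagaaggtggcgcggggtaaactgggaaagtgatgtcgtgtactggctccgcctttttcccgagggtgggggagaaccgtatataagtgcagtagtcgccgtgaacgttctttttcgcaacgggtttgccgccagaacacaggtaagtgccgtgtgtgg
PPIA promoter: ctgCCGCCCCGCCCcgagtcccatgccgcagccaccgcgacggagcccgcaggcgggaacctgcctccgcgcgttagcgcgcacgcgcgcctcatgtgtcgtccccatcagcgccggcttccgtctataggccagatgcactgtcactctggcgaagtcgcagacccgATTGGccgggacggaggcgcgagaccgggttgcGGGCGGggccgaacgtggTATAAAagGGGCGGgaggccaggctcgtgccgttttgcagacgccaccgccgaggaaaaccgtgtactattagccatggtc
HPRT1 promoter: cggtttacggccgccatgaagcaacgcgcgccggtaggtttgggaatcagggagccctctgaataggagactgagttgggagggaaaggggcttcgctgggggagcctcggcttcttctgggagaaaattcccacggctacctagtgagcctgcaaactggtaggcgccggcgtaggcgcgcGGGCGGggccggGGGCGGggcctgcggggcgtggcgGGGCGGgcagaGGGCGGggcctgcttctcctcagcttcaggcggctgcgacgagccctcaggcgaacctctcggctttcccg

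TATAAA was found in PPIA alone among these 6 sequences, starting at −31, and in 11.5% of 35116 RefSeq promoters of this length. All 6 held at least 1 GC box, from 1 in EEF1A1 and TBP through 2 at the internal GAPDH start and 3 in PGK1 to 4 in PPIA and HPRT1, against 45.0% of all promoters with any. CCAAT was found in TBP, PGK1 and PPIA and in 34.6% of all promoters. These matches describe the exact letters only, and variants such as the tatataa in the EEF1A1 promoter were not counted.

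The first comparison asked how H3K4me3 at each peak differed between C48 and DMSO cells. On the TMM scale 4 of the 25 peaks were called higher in C48 (ACTB −442, GAPDH −1008, EEF1A1 −2622 and HPRT1 +1338), 17 were lower and 4 were not called, at a limma adjusted p of 0.05 over all peaks. Among all tested peaks 37.4% were called higher and 34.1% lower. Of the 14 core peaks 1 was higher, 12 were lower and 1 was not called, with a median log2 difference of −0.77, against −0.37 over 16825 core peaks of all genes, of which 17.9% were higher and 61.5% lower. Of the 11 shoulders 3 were higher, 5 lower and 3 not called, with a median of −0.086, against 0.27 over 10266 shoulders, of which 48.7% were higher and 25.7% lower. Scaled on ribosomal protein promoters, the medians were 0.011 for the core and 0.68 for the shoulder peaks. On that scale 35578 of all 43712 tested peaks were called higher, so a value near 0 there is not a middle value among all peaks. Across 5 scalings (TMM, deposited values, column totals, DESeq2 size factors and ribosomal protein promoters) the 4 higher peaks were called higher in each, and 5 peaks were called lower in each: ACTB +536, GAPDH −247, EEF1A1 +60, YWHAZ +151 and PPIA +476. These scalings shift all peaks by nearly a constant, so a call in all 5 turns on the lowest and highest of them. Over all 43712 tested peaks 14900 were called higher with DESeq2 size factors, the lowest, and 1919 lower on ribosomal protein promoters, the highest. After cyclic loess, which also removes the trend with strength, the calls of those member peaks stood except that of EEF1A1 −2622 (0.21, limma adjusted p = 0.609).

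**Figure D1:**
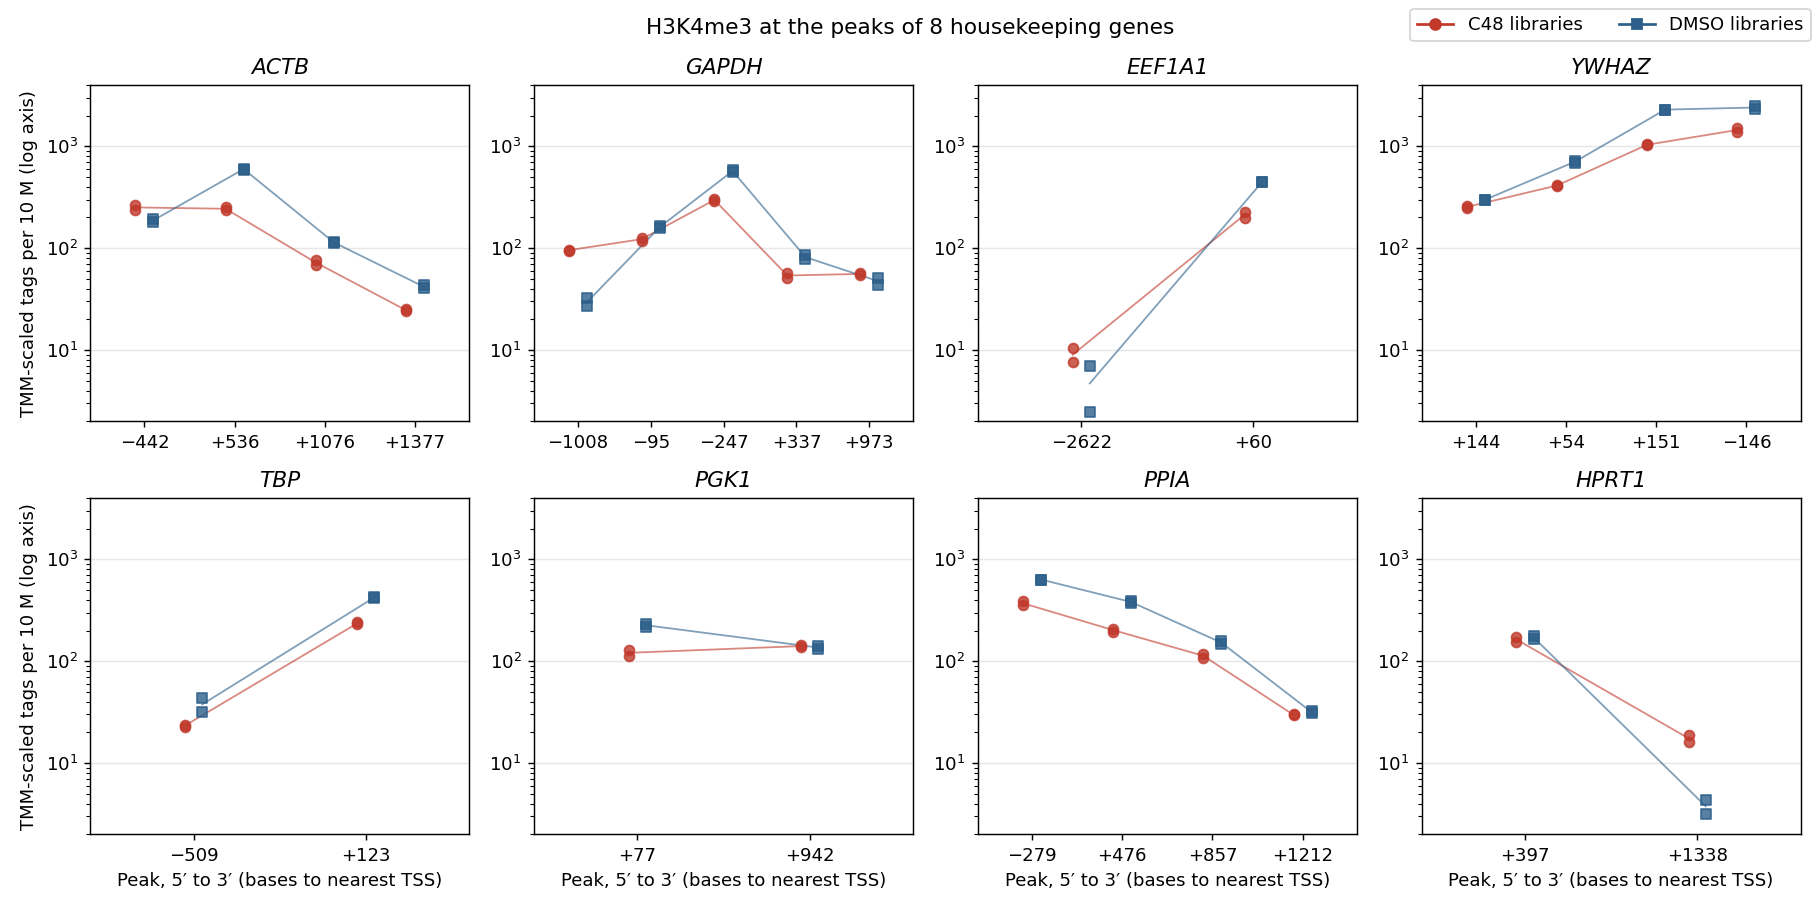
H3K4me3 at the 25 peaks of the 8 genes, in TMM-scaled tags per 10 M on a log axis, with peaks in 5′ to 3′ order and named by their distance in bases to the nearest TSS. Circles are the 2 C48 and squares the 2 DMSO libraries, and lines join group means. C48 values lie above DMSO values at ACTB −442, GAPDH −1008, EEF1A1 −2622 and HPRT1 +1338 under all 5 scalings, and the points lie below DMSO at most strong peaks on this scale but not for 12 peaks when scaled on ribosomal protein promoters.

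ACTB encodes cytoplasmic beta-actin, the subunit of the microfilaments. The gene had 4 peaks on the minus strand of chromosome 7, running from a promoter peak at −442 (chr7:5530775-5531311) through +536 in intron 1 (chr7:5529739-5530392) and +1076 in intron 2 to +1377 in exon 3. The −442 peak held 236 and 267 tags in C48 libraries, against 193 and 182 in DMSO libraries, so that both C48 libraries lay above both DMSO libraries. Its log2 difference was 0.42 ± 0.069 (SE, limma adjusted p = 4.45e-07), a 1.33-fold rise, and between 0.35 and 1.20 under the other 4 scalings. The neighbouring +536 peak went the opposite way, with 234 and 252 tags in C48 libraries and 605 and 591 in DMSO libraries. This was a fall by 1.29 on the log2 scale (SE 0.054, limma adjusted p = 1.90e-28), the largest among the 25 peaks on this scale, and −0.51 when scaled on ribosomal protein promoters. After cyclic loess it was −0.82, a smaller fall than that of ACTB +1377 at −1.12. In C48 libraries the promoter and intron 1 peaks were thus close, with 1551 and 1542 counted tags in replicate 1, nearly a tie, and 2164 and 2048 in replicate 2. In both DMSO libraries the intron 1 peak was clearly the higher. A scaling factor per library cannot alter these orders, but the peaks differ in length, at 537 and 654 bases.

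Both peaks further into ACTB were lower on the TMM scale, +1076 by −0.65 and +1377 by −0.74 on the log2 scale, but lay at 0.13 and 0.024 when scaled on ribosomal protein promoters, where neither was called. The +1076 peak averaged 72.2 ± 5.15 tags in C48 and 114 ± 3.13 in DMSO libraries, and the +1377 peak 24.6 ± 0.925 in C48 and 41.6 ± 2.01 in DMSO libraries (SD, n = 2 each). The exon 3 peak is uncertain, since 16 other places in hg38 match it at 90% identity or more, the longest over 201 bases or 76.1% of the peak. The +536 peak held 41.0% and 41.3% of the ACTB signal within 5 kb in C48 libraries, against 63.2% and 63.9% in DMSO libraries. The −442 peak held 41.3% and 43.6% in C48 libraries, against 20.2% and 19.7% in DMSO libraries.

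GAPDH and PGK1 encode enzymes of successive steps of glycolysis, the first a dehydrogenase and the second a kinase that yields ATP. GAPDH, on the plus strand of chromosome 12, had 5 peaks. The strongest, at −247 from an internal TSS and +500 from the canonical one (chr12:6534617-6535417), held 290.0 and 305 tags in C48 libraries, against 561 and 583 in DMSO libraries. It was lower under all 5 scalings, by −0.94 ± 0.052 on the log2 scale with TMM (SE, limma adjusted p = 3.44e-23) and −0.16 with ribosomal protein promoters. Upstream, in intergenic sequence, the −1008 shoulder held 94.0 and 96.9 tags in C48 libraries, against 26.9 and 32.0 in DMSO libraries. That 3.18-fold rise (log2 difference 1.67 ± 0.12, limma adjusted p = 4.42e-18) was the second largest of the 25 peaks on the TMM scale, and the values of the 2 groups were far apart. The share of the 5 kb signal in the strongest peak was 47.7% and 47.5% in C48 and 63.7% and 64.6% in DMSO libraries.

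The 3 remaining GAPDH peaks gave smaller or scale-dependent differences. The −95 core peak averaged 122 ± 5.45 tags in C48 and 161 ± 3.60 in DMSO libraries, a log2 difference of −0.39 that was −0.063 and not called on deposited values and 0.39 on ribosomal protein promoters. The +337 peak in intron 1 averaged 53.9 ± 3.99 tags in C48 and 81.5 ± 4.74 in DMSO libraries (SD, n = 2 each), at −0.59 with TMM and 0.18 on ribosomal protein promoters. Further into intron 1 the +973 shoulder held 55.8 ± 2.07 tags in C48 and 47.4 ± 5.17 in DMSO libraries, a difference of 0.24 ± 0.12 that was not called (limma adjusted p = 0.0826). Without DMSO replicate 2 the value was 0.35 and called (limma adjusted p = 0.0258), and on deposited values it was 0.56 and called.

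PGK1 lies on the X chromosome and had 1 core and 1 shoulder peak, both long and both called by the authors in all 4 libraries. The core peak at +77 (chrX:78103967-78104684) held 113 and 129 tags in C48 libraries, against 234 and 217 in DMSO libraries. It was lower by −0.90 ± 0.077 on the log2 scale (SE, limma adjusted p = 1.69e-15), but at −0.12 and uncalled when scaled on ribosomal protein promoters. The shoulder at +942 in intron 1 (chrX:78104830-78105550) held 144 and 138 tags in C48 libraries and 141 and 131 in DMSO libraries. These groups overlapped, with a log2 difference of 0.050 ± 0.081 (SE, limma adjusted p = 0.590), which became 0.38 and called on deposited values. Within both C48 libraries the shoulder was the stronger of the 2 peaks, and within both DMSO libraries the core was.

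EEF1A1 encodes the elongation factor that delivers aminoacyl-tRNA to the ribosome. A single long core peak of 1503 bases at +60 (chr6:73520221-73521723) held 199.6 and 227 tags in C48 libraries, against 448 and 442 in DMSO libraries. The log2 difference of −1.06 ± 0.060 (SE, limma adjusted p = 1.06e-22) was lower under all 5 scalings, at −0.28 on ribosomal protein promoters. An intergenic shoulder at −2622 held only 7.60 and 10.4 tags in C48 libraries, against 6.96 and 2.44 in DMSO libraries, from 14 to 84 counted tags. Its log2 difference of 0.92 ± 0.33 was called (limma adjusted p = 0.0118), but was 0.31 without DMSO replicate 2 (adjusted p = 0.378), 0.72 without C48 replicate 2 (adjusted p = 0.157) and 1.52 without DMSO replicate 1 (adjusted p = 5.19e-05), so this weak peak turned on single libraries. It was not called by the DESeq2 Wald test either (0.81, adjusted p = 0.227).

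YWHAZ encodes a 14-3-3 adaptor protein that binds phosphorylated partners. Its 4 peaks on chromosome 8 each lie nearest a different TSS of the gene, and the 2 at −146 and +151 were the strongest of the whole set. The most downstream, at −146, held 1396 and 1496 tags in C48 libraries, against 2333 and 2469 in DMSO libraries, the highest level among the 25 peaks. It was lower by −0.73 ± 0.032 on the log2 scale with TMM (SE, limma adjusted p = 1.47e-27), but lay at 0.054 and uncalled on ribosomal protein promoters. After cyclic loess it was called higher, at 0.14 (limma adjusted p = 2.09e-05). The peak at +151, beside the canonical TSS, averaged 1034 ± 11.2 tags in C48 and 2289 ± 2.23 in DMSO libraries (SD, n = 2 each), a difference of −1.15 that stayed lower under all 5 scalings. At the upstream starts, +54 averaged 412 ± 6.78 tags in C48 and 705 ± 17.6 in DMSO libraries, and +144 averaged 253 ± 11.2 in C48 and 298 ± 1.70 in DMSO libraries. Their log2 differences were −0.77 and −0.23 with TMM, and 0.0098 and 0.55 on ribosomal protein promoters. The +144 peak also lay above 0 on deposited values, at 0.10. The 4 peaks of this gene thus spanned −1.15 to −0.23 on a common scale, the fall at +151 being the deepest.

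TBP encodes the TATA-binding protein, which nucleates the transcription machinery at promoters. The core peak at +123 in intron 1 (chr6:170554164-170554820) held 229 and 241 tags in C48 libraries, against 428 and 418 in DMSO libraries. With TMM it was lower by −0.85 ± 0.058 on the log2 scale (SE, limma adjusted p = 1.97e-19), against −0.062, uncalled, when scaled on ribosomal protein promoters. The shoulder at −509 held 23.8 and 22.8 tags in C48 libraries, against 43.8 and 31.5 in DMSO libraries. Its difference of −0.65 ± 0.16 (limma adjusted p = 3.90e-04) was −0.33 and not called on deposited values, and 0.11 on ribosomal protein promoters. This shoulder lies between TBP and the divergently transcribed proteasome gene PSMB1, and the table annotates it as a PSMB1 promoter, so that it cannot be given to one gene. The PSMB1 peak beyond it (chr6:170552687-170553379) held 182 and 195 tags in C48 libraries, against 327 and 339 in DMSO libraries.

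PPIA encodes cyclophilin A, a prolyl isomerase that helps proteins fold and is the target of ciclosporin. Its 4 peaks ran from −279 over the promoter to +1212 in intron 1 on the plus strand of chromosome 7. The −279 peak (chr7:44796079-44796726) held 355 and 386 tags in C48 libraries, against 633 and 633 in DMSO libraries, a log2 difference of −0.77 ± 0.050 (SE, limma adjusted p = 1.84e-20) that was 0.011 on ribosomal protein promoters. At +476 the mean was 202 ± 9.42 tags in C48 and 381 ± 10.7 in DMSO libraries (SD, n = 2 each), a difference of −0.91 that stayed lower under all 5 scalings. The shoulder at +857 (chr7:44797407-44797670) held 107 and 118 tags in C48 libraries, against 146 and 158 in DMSO libraries. Its difference of −0.43 ± 0.083 (limma adjusted p = 1.06e-05) was −0.096 and not called on deposited values, and 0.35 on ribosomal protein promoters. At +1212 the mean was 29.7 ± 0.535 tags in C48 and 31.6 ± 1.13 in DMSO libraries, which was not called (−0.086 ± 0.15, limma adjusted p = 0.628). This peak was called higher on ribosomal protein promoters, at 0.68, but lower after cyclic loess, at −0.48 (limma adjusted p = 0.00669).

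HPRT1 encodes the enzyme that salvages hypoxanthine and guanine into purine nucleotides and, like PGK1, is X-linked. The core peak at +397 (chrX:134460134-134460991) held 153 and 174 tags in C48 libraries, against 164 and 178 in DMSO libraries, so that the groups overlapped. Its log2 difference of −0.067 ± 0.077 (SE, limma adjusted p = 0.436) was 0.26 on deposited values and 0.71 on ribosomal protein promoters, called higher in both. Among the 8 genes this was the one whose strongest peak was not called on the TMM scale. The shoulder at +1338 in intron 1 held 16.3 and 18.7 tags in C48 libraries, against 3.17 and 4.35 in DMSO libraries. The log2 difference of 1.97 ± 0.27 (limma adjusted p = 7.69e-09), or 3.91-fold, was the largest rise of the 25 peaks, and between 1.91 and 2.64 under the other 4 scalings. It was second to GAPDH −1008 after cyclic loess, at 1.32 against 1.45, and with a pseudocount of 5, at 1.36 against 1.55. Only 25 tags were counted in each DMSO library and 107 and 152 in the C48 libraries, so the fold rests on few DMSO tags.

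**Figure D2:**
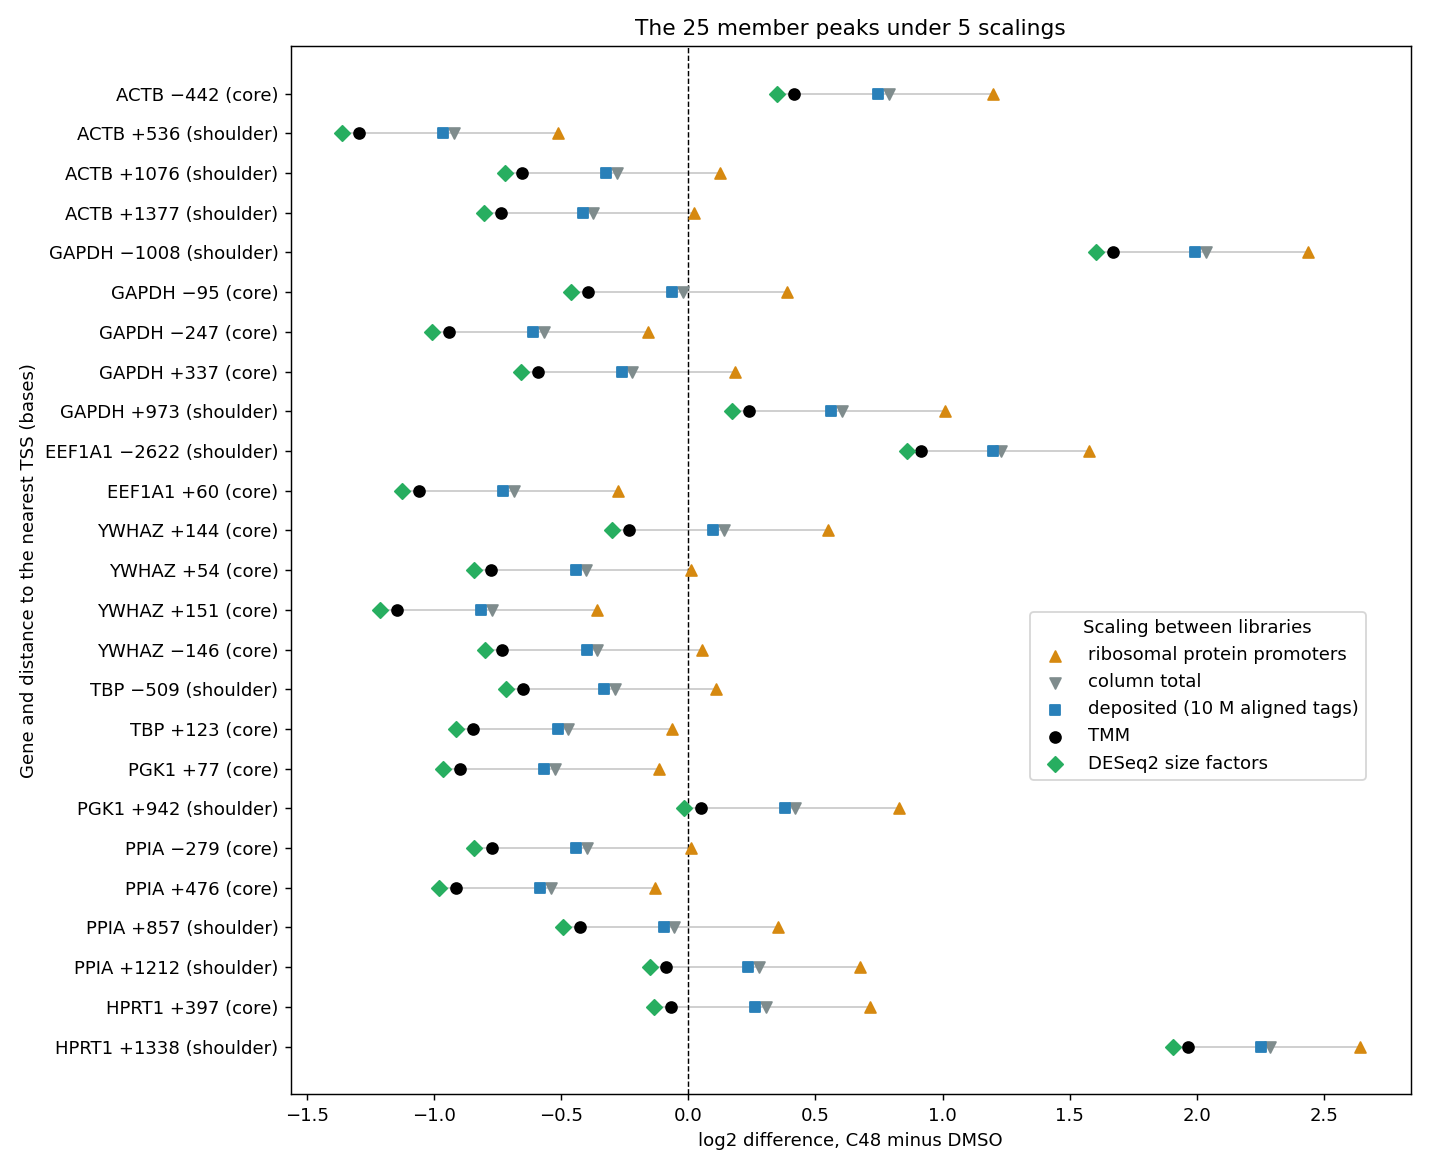
Log2 difference (C48 minus DMSO) of each of the 25 peaks under 5 scalings between libraries, with the class of each peak in brackets. Peaks keep their place relative to each other while the symbols run from DESeq2 size factors at the left to ribosomal protein promoters at the right. ACTB −442, GAPDH −1008, EEF1A1 −2622 and HPRT1 +1338 lie right of 0 under each, and 12 peaks below 0 with TMM lie above 0 on ribosomal protein promoters.

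Levels can be compared between genes only per length. Taking per kilobase the peak of each gene with the highest mean over the 4 libraries, YWHAZ stood highest at 2345 and 2514 tags in C48 libraries, against 3921 and 4150 in DMSO libraries. PPIA followed with 548 and 595 tags per kilobase in C48 and 977 in both DMSO libraries. In DMSO libraries the next places went to ACTB at 903 to 924, GAPDH at 699.9 to 727 and TBP at 637 to 652, without overlap between neighbours. In C48 libraries the same peaks of those 3 genes overlapped, at 358 to 386 for ACTB, 362 to 380.3 for GAPDH and 349 to 367 tags per kilobase for TBP. Other peaks stood higher per kilobase there, with ACTB −442 at 439 and 497 and GAPDH −95 at 419 and 446 tags in C48 libraries, against 360.0 and 339 for ACTB −442 and 578 and 560 for GAPDH −95 in DMSO libraries. The lowest were PGK1 at 157 to 179, EEF1A1 at 133 to 151 and HPRT1 at 178 to 203 in C48 libraries, against 302 to 326, 294 to 298 and 192 to 207 in DMSO libraries. HPRT1 was thus last of the 8 in DMSO libraries, while in C48 libraries it lay above EEF1A1 and overlapped PGK1.

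Over all genes, the difference between groups went with the strength of the peak, and the 25 peaks can be set beside peaks of like strength. Peaks were placed in classes by their mean over the 4 libraries on deposited values. Core peaks with a mean of 200 to 500 tags had a median log2 difference of −0.54 (quartiles −0.75 and −0.28, 5401 peaks). EEF1A1 +60, GAPDH −247, TBP +123, PPIA +476 and, narrowly, PPIA −279 at −0.77 lay below the lower quartile of this class. YWHAZ +144 at −0.23 and ACTB −442 at 0.42 lay above the upper. PPIA −279 was close to the edge of the class, with a TMM-scaled mean of 502 tags. Core peaks of 1000 tags and more had a median of −0.73, which was the value of YWHAZ −146 itself, and YWHAZ +151 at −1.15 lay below their lower quartile of −0.86. Among core peaks of 100 to 200 tags, with quartiles of −0.63 and 0.021, GAPDH −95 and HPRT1 +397 lay inside and PGK1 +77 at −0.90 below. Core peaks of 500 to 1000 tags had quartiles of −0.83 and −0.46, which hold YWHAZ +54 and would hold PPIA −279 if it were placed there. GAPDH +337 at −0.59 lay below the lower quartile of −0.43 in the class of 50 to 100 tags. In shoulders of 50 to 100 tags the median was 0.29 and the upper quartile 0.74, well under GAPDH −1008 at 1.67 and above ACTB +1076 at −0.65, with GAPDH +973 inside the quartiles. All 3 shoulders of 20 to 50 tags, ACTB +1377 at −0.74, TBP −509 at −0.65 and PPIA +1212 at −0.086, lay below the lower quartile of 0.10. In the class of 100 to 200 tags PPIA +857 at −0.43 lay below the lower quartile of −0.32 and PGK1 +942 inside. Shoulders of 5 to 20 tags had quartiles of 0.27 and 1.34, which hold EEF1A1 −2622 at 0.92 but not HPRT1 +1338 at 1.97. Shoulders of 200 to 500 tags had a median of −0.29, against −1.29 for ACTB +536. With the classes held fixed, a scaling factor shifts member and background values together, so the place of a peak in its class does not depend on it apart from the pseudocount.

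**Figure D3:**
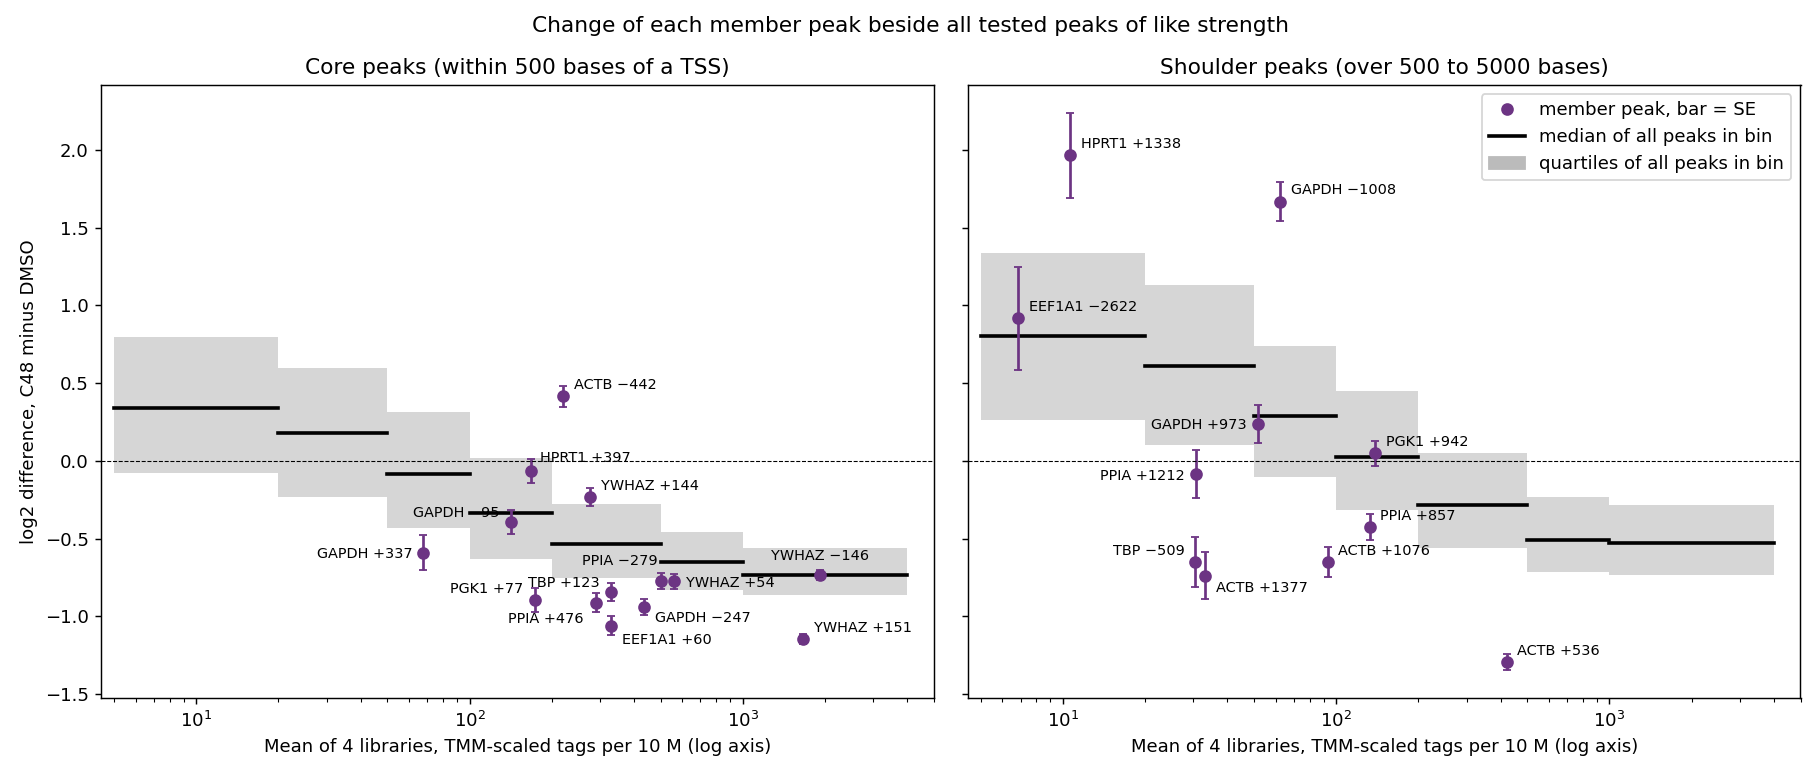
Log2 difference (C48 minus DMSO, TMM scale) of each member peak with its SE, against the mean of the 4 libraries in tags per 10 M on a log axis, for core peaks at the left and shoulders at the right. Black lines and grey boxes are the medians and quartiles of all tested peaks in bins of strength. GAPDH −1008, HPRT1 +1338 and ACTB −442 lie above the boxes, and ACTB +536, YWHAZ +151 and EEF1A1 +60 below them.

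The second comparison asked how shoulder signal differed relative to the core of the same gene, using the ratio of summed shoulder to summed core signal in each library. A scaling factor per library cancels in this ratio, but the trend with strength that cyclic loess removes does not. Of the 7 genes with both parts, 5 had a higher ratio in C48 (GAPDH, EEF1A1, PGK1, PPIA and HPRT1), ACTB a lower one, and TBP was not called. Over 5357 genes 77.2% were called higher and 6.81% lower, with a median log2 difference of 0.71. The GAPDH ratio was 0.323 and 0.316 in C48 libraries, against 0.0872 and 0.101 in DMSO libraries (log2 difference 1.75 ± 0.10, limma adjusted p = 1.77e-09). HPRT1 had 0.106 and 0.108 in C48 libraries, against 0.0193 and 0.0245 in DMSO libraries (2.03 ± 0.26, limma adjusted p = 3.07e-06). For PGK1 the shoulder exceeded the core in C48 libraries, at 1.28 and 1.07, but not in DMSO libraries, at 0.604 and 0.602 (0.95 ± 0.099, limma adjusted p = 4.29e-07). PPIA moved least among the called genes, with 0.248 and 0.250 in C48 libraries, against 0.176 and 0.186 in DMSO libraries (0.46 ± 0.084, limma adjusted p = 1.14e-04). EEF1A1 had a near-empty shoulder, at 0.0381 and 0.0456 in C48 libraries, against 0.0156 and 0.00552 in DMSO libraries. The TBP ratios overlapped, at 0.104 and 0.0945 in C48 and 0.102 and 0.0753 in DMSO libraries (0.19 ± 0.17, limma adjusted p = 0.305).

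The direction for ACTB rested on where the core was drawn. With the 500-base limit the strong intron 1 peak at +536 counts as shoulder, and the ratio was 1.42 and 1.29 in C48 libraries, against 3.95 and 4.07 in DMSO libraries (log2 difference −1.56 ± 0.069, limma adjusted p = 2.78e-10). When the peak with the highest mean over the libraries was taken as the core of each gene, ACTB had 1.44 and 1.42 in C48 libraries, against 0.583 and 0.566 in DMSO libraries, a difference of 1.31 in the opposite direction. With a limit of 1000 bases both large peaks count as core, and the difference was −0.012 and not called. Taking the strongest peak as core also gave YWHAZ a ratio, lower in C48 by −0.22, and brought PPIA to 0.062 and not called. Measured from the canonical TSS, an alternative chosen after seeing the data, YWHAZ had 1.99 and 2.09 in C48 libraries, against 1.45 and 1.52 in DMSO libraries, a difference of 0.46 in the higher direction. Only GAPDH, EEF1A1, PGK1 and HPRT1 were called higher under each division that gave them a ratio.

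**Figure D4:**
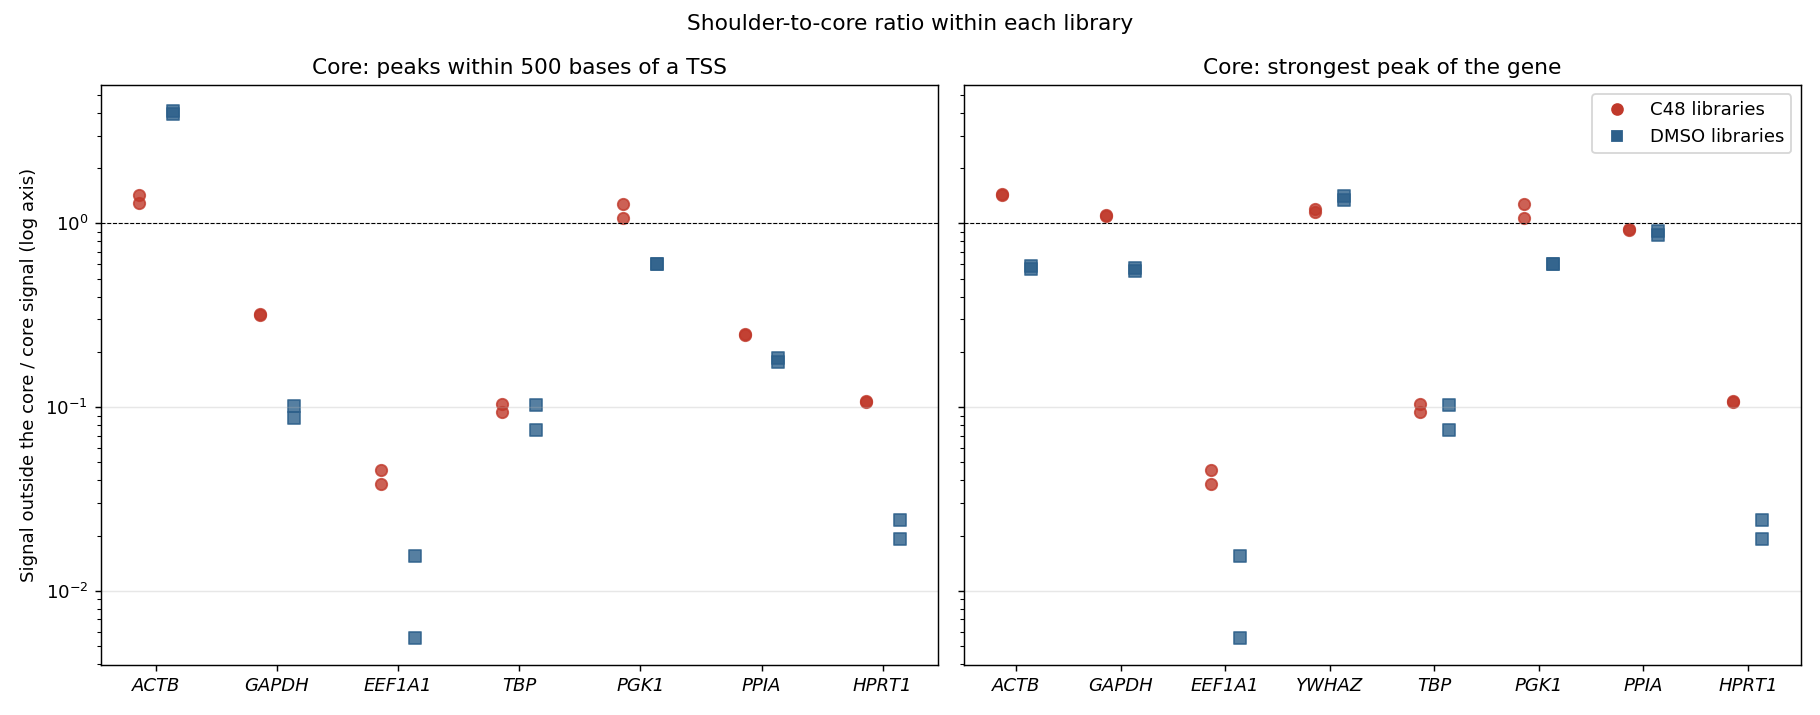
Signal outside the core divided by core signal, on a log axis, in the 2 C48 (circles) and 2 DMSO libraries (squares) of each gene. At the left the core holds peaks within 500 bases of a TSS, and at the right it is the strongest peak of the gene. GAPDH, EEF1A1, PGK1 and HPRT1 are higher in C48 in both panels, while ACTB lies below DMSO at the left and above it at the right.

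Summed over each gene within 5000 bases, 0 genes were called higher in C48, 7 lower and HPRT1 not called (limma), against 21.6% called higher and 60.5% lower of 15615 genes. Log2 differences of the sums were −1.02 for EEF1A1, −0.86 for YWHAZ, −0.83 for TBP, −0.74 for PPIA, −0.67 for ACTB, −0.51 for GAPDH, −0.46 for PGK1 and 0.048 for HPRT1, with SEs of 0.027 to 0.074. For ACTB the sum held 571 and 611 tags in C48 libraries, against 957 and 925 in DMSO libraries, a lower sum beside a higher promoter peak. For HPRT1 it held 169 and 193 tags in C48 libraries, against 168 and 182 in DMSO libraries. On ribosomal protein promoters ACTB, GAPDH, PGK1 and HPRT1 sums were called higher, PPIA was at 0.041, and EEF1A1 and YWHAZ alone were called lower.

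The authors' own peak calls, which the merged table records for each library, differed along the same genes. Of the 25 peaks 8 were recorded from all 4 libraries, 3 from both libraries of 1 group and 14 from none of the 4, having entered the table from other libraries of the study, against 58.5% of all merged peaks recorded from none. ACTB −442 was recorded from C48 libraries alone, both of them, and GAPDH −247 and YWHAZ +151 from DMSO libraries alone, again both. The share of such records over all merged peaks was not taken. A record did not follow the level of a peak. In C48 libraries YWHAZ +151 held 6758 and 8459 counted tags and was not recorded, while EEF1A1 +60 held 1314 and 1842 and was. The 14 peaks called in none were 212 to 427 bases long, against 537 to 1503 bases for the 11 others, and 3 of the 4 higher peaks were among them.

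The peaks also differed in sequence, which the choice of genes did not use. Core peaks had a median GC content of 66.5% and a median CpG observed-to-expected ratio of 0.832, and shoulders 56.8% and 0.495. Over all genes the medians were 65.6% and 0.769 for 16850 core peaks and 58.7% and 0.609 for 10269 shoulders. The 4 peaks higher in C48 had CpG ratios of 0.240 (HPRT1 +1338), 0.385 (GAPDH −1008), 0.443 (ACTB −442) and 0.867 (EEF1A1 −2622). The 17 peaks lower on the TMM scale had a median of 0.790, from 0.413 (GAPDH +337) to 1.12 (PPIA −279). Within ACTB the rising −442 and the falling +536 peak were both GC-rich, at 68.2% and 76.1%, but had CpG ratios of 0.443 and 0.991. GAPDH +973 and PGK1 +942, which were not called, had ratios of 0.144 and 0.399. This is a description of 25 peaks that share libraries and genes, and the part of CpG content in the differences was not tested.

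Further genes of the same pathways, chosen with earlier results of these data known, are given by their 5 kb sums beside the background of 21.6% higher and 60.5% lower. Of 20 measured reference genes used for normalisation elsewhere, 19 were lower and 1 higher, with a median log2 difference of −0.59 that was 0.19 on ribosomal protein promoters. VCP, an AAA ATPase, held 487 and 488 tags in C48 libraries, against 886 and 901 in DMSO libraries, and the ribosomal protein genes RPL13A and RPLP0 were lower by −1.04 and −0.87. Around ACTB all 12 actin cytoskeleton genes were lower (median −0.66, and 0.12 on ribosomal protein promoters), led by the thymosin TMSB10 at −0.90, the ARP2/3 subunit ACTR3 at −0.81 and cofilin, CFL1, at −0.86. In glycolysis 8 of 11 were lower, 1 higher and 2 not called (median −0.32, 0.016 on deposited values and 0.47 on ribosomal protein promoters), with the pyruvate kinase gene PKM at −0.83, the phosphofructokinase PFKP at −0.55 and the isomerase TPI1 at −0.56. Of 7 elongation factors 6 were lower and 1 higher (median −0.56, and 0.23 on ribosomal protein promoters), among them EEF1G at −0.57, EEF2 at −0.70 and the mitochondrial TUFM at −0.56.

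Of 5 other 14-3-3 genes 3 were lower, 1 higher and 1 not called, with a median of −0.80 that stayed at −0.016 on ribosomal protein promoters: YWHAG was at −1.05, YWHAQ at −0.91 and YWHAB at −0.80. In the general transcription machinery beside TBP 18 of 21 were lower, 1 higher and 2 not called (median −0.55, and 0.23 on ribosomal protein promoters), with the TFIID subunits TAF5 at −0.85 and TAF4 at −1.0 and the RNA polymerase III factor BRF1 at −0.53. All 15 prolyl isomerases were lower (median −0.35, −0.021 on deposited values and 0.43 on ribosomal protein promoters), including FKBP4 at −0.76, FKBP3 at −0.78 and FKBP2 at −0.69. Of 15 purine genes 11 were lower, 3 higher and 1 not called (median −0.27, 0.057 on deposited values and 0.51 on ribosomal protein promoters), with GMPS, the last step of GMP synthesis, at −0.78, the kinase ADK at −0.65 and GART at −0.64. The shoulder-to-core ratio, called higher in 77.2% and lower in 6.81% of all genes with one, was called higher in 10 of 11 reference, 4 of 6 actin, 3 of 5 glycolytic, 4 of 4 elongation factor, 1 of 1 14-3-3, 12 of 12 transcription, 5 of 6 isomerase and 7 of 7 purine genes that had one, and lower in 1, PGAM1 of glycolysis, at −1.65.

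The few genes of these lists called higher are named here after their values were seen. GTF2E1, a subunit of TFIIE, held 37.7 and 37.5 tags in C48 libraries, against 15.2 and 13.1 in DMSO libraries, a log2 difference of 1.35. ATIC, which catalyses the closing steps of purine synthesis, held 541 and 567 tags in C48 libraries, against 325 and 357 in DMSO libraries (0.70). The rises of the other genes were smaller, at 0.40 for CHMP2A, 0.27 for IMPDH2, 0.25 for APRT, 0.20 for SFN, 0.17 for PFKM and 0.11 for EEF1A2, the tissue-restricted paralog of EEF1A1. Not called were HK2, LDHB, YWHAH, TAF1, GTF2F2 and ADSL. Of the genes named as lower with TMM, PFKP, TPI1, EEF1G, EEF2, TUFM, BRF1, FKBP2, FKBP3, FKBP4, GMPS, ADK and GART lay above 0 on ribosomal protein promoters.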

How the data were processed

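H3K4me3 was profiled by CUT-and-Tag in 2 C48 and 2 DMSO libraries of HCC1428 cells. The submitters' processing notes name Bowtie2 (2.3.4.1) and the hg38 build. The authors called peaks per library with HOMER (version not given in the sources used here), merged them over libraries that include other cell lines, and deposited a signal per peak and library, namely tags scaled to 10 M aligned tags without spike-in scaling. All values (100%) were whole multiples of 1 tag within 0.1 tags. Of the 110018 merged peaks 45692 stem from 1 or more of the 4 libraries, with 37462 and 37867 from the C48 and 30162 and 29745 from the DMSO libraries. The deposited repeat table holds no gene and was not used here. Treated columns carry another tag than C48 and were matched through the sample descriptions.

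Values were scaled with the TMM factors of edgeR 4.0.16 and log2(value + 1) was fitted by limma (version 3.58.1, trended prior, in R 4.3.3) for 43712 peaks with a mean of at least 5 tags. Adjusted p-values are Benjamini-Hochberg over all tested peaks, genes or ratios, called at 0.05. Fold changes on this scale understate those of weak peaks. Ratios used genes with a core sum of at least 20 and a shoulder sum of at least 5 tags. A permutation test of 2 against 2 libraries cannot go below 0.333 and was not used. Count tests were run on read pairs, taken as the recovered tags divided by 2 and rounded. The edgeR quasi-likelihood test called 31468 peaks, 31090 of them also called by limma with the same sign, and DESeq2 1.42.0 was a further alternative. The study scaled on spike-in counts, which were not used here, so TMM took their place. Annotations and distances are those of the deposited table, canonical TSSs are from Gencode version 44, and copies of peak sequence were sought with BLAST 2.17.0. The statistical steps were tested on simulated data. Tables were handled with pandas 2.3.3 and numpy 2.4.6, and drawn with matplotlib 3.10.9, in Python 3.11.15.

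The 8 genes and the further lists were chosen with earlier results of these data known. Values in every library are given for the strongest core and the strongest shoulder peak of each gene, and for each list up to 3 genes with the smallest p.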

Additional observations from a re-analysis of the deposited data

How the results depend on the processing

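The direction of 12 of the 25 peaks differed between TMM and ribosomal protein promoters. A scaling factor per library cancels in the ratios by construction, apart from the pseudocount, so these could not show such a dependence. Ratios were not refitted after cyclic loess. Member peaks called higher numbered 7 on deposited values, 8 on column totals, 11 on ribosomal protein promoters and 2 with a filter at a mean of 20, which leaves out the EEF1A1 −2622 and HPRT1 +1338 peaks by construction. Those called lower numbered 5 on ribosomal protein promoters. Among all peaks 9130 were lower on deposited values, 25006 higher and 8426 lower on column totals, and 35578 higher and 1919 lower on ribosomal protein promoters, while 9024 were higher with the filter at 20 and 10630 with the DESeq2 Wald test. Gene sums called higher numbered 1 (HPRT1) on deposited values, column totals, cyclic loess, edgeR and DESeq2, the last 2 scaled over gene sums, and 4 on ribosomal protein promoters, where 2 were lower.

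Peaks that turned were YWHAZ +144 (0.10) and HPRT1 +397 (0.26) on deposited values and the same peaks (0.14 and 0.30) on column totals. On ribosomal protein promoters the log2 differences were 0.054 for YWHAZ −146, 0.0098 for YWHAZ +54, 0.55 for YWHAZ +144, 0.011 for PPIA −279, 0.35 for PPIA +857, 0.68 for PPIA +1212, 0.39 for GAPDH −95, 0.18 for GAPDH +337, 0.13 for ACTB +1076, 0.024 for ACTB +1377, 0.11 for TBP −509 and 0.71 for HPRT1 +397. Sums on that scaling were 0.11 for ACTB, 0.27 for GAPDH, 0.32 for PGK1 and 0.041 for PPIA. After cyclic loess, which removes the trend with strength, YWHAZ −146 at 0.14 and YWHAZ +144 at 0.15 were called higher and PPIA +1212 at −0.48 lower. The GAPDH sum was at 0.013, and EEF1A1 −2622 was no longer called. With a core of 1000 bases 0 ratios were called lower, and with the strongest peak as core the ACTB ratio was 1.31 higher. These shifts follow from the factors themselves, and which scaling is nearest to the spike-in was not tested. Against the deposited values TMM and DESeq2 size factors lower C48 relative to DMSO, by 0.33 and 0.40 on the log2 scale. The spike-in scaling described in the paper raises C48 instead.

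Leaving out 1 library at a time gave 3 to 4 higher and 17 to 17 lower member peaks, 13395 to 15627 higher and 13832 to 14304 lower peaks in all, 0 to 0 higher and 7 to 7 lower sums, and 5 to 5 higher and 1 to 1 lower ratios. The replicate numbers did not pair the libraries (Pearson correlation of their deviations −0.031 over 43712 peaks), and with a replicate block 4 member peaks were higher and 17 lower, and 16241 and 14804 of all peaks. The pseudocounts, the absence of a filter and the DESeq2 size factors changed no call of a member count by over 1.5 times. Depth limits the weak shoulders most, with 14 to 84 tags for EEF1A1 −2622.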

Other observations

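Beyond 5000 bases 21 further peaks carried the names of these genes, of which 7 passed the filter, 4 were called higher in C48 and 0 lower (limma, TMM scale), against 37.4% higher and 34.1% lower of all tested peaks. A peak at −25571 from ACTB (chr7:5555797-5556547) held 330.2 and 330.5 tags in C48 libraries, against 265 and 264 in DMSO libraries (log2 difference 0.32). A peak at +102999 from YWHAZ (chr8:100847283-100847862) held 118 and 114 tags in C48 libraries, against 65.5 and 69.3 in DMSO libraries (log2 difference 0.77), and one at +62080 held 12.6 and 15.9 in C48 and 6.20 and 4.01 in DMSO libraries. Another at +42080 from YWHAZ held 388 and 371 tags in C48 and 396 and 354 in DMSO libraries, so that the groups overlapped. The assignment of these peaks to the nearest TSS names a position, not a target.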
